A study of Mus musculus with 12 samples.

Results

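Ribosome biogenesis factors are the proteins that transcribe, modify, cut and fold ribosomal RNA and assemble it with ribosomal proteins. A list of 51 such genes was drawn up by function and matched by gene name to the RNA-Seq values of mouse CD4 T blast cells (TB). Of these, 50 were among the 24439 gene names of the series, and Noc2l was not analysed here. All 50 passed the minimum of 1 TPM in at least 1 library that was set for the 12442 genes tested. The rule of the list is function and uses no measured value, but the list was drawn up with earlier results of these data known.

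The study asked how IL-2 maintains the state of recently activated T cells and what 16 h without it changes. CD4 T cells from the spleens of C57BL/6 C42 mice, which carry a human IL3/CSF2 transgene in all groups, were turned into blasts with 2 µg/ml of the mitogen concanavalin A for 40 h. They were then kept in 50 U/ml IL-2, for 30 h by the methods and for 2 days by the labels. TB IL-2 cells stayed in IL-2, while TB IL-2nil cells spent the last 16 h without it. TB+ IL-2 and TB+ IL-2nil are cells kept in these ways and treated for 2 h with 20 ng/ml of the phorbol ester PMA and 2 µM of the calcium ionophore A23187 (PMA/I), which bypass the T cell receptor. Each of the 4 groups has 3 libraries of rRNA-depleted total RNA made with a kit that keeps strand. Neither source says whether replicates are separate cultures or mice, so P-values measure the spread between these samples, which may be technical.

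In 2 libraries the reads go against the labels. Il2, which only activated T cells transcribe at a high level, was at 1368 FPKM in the library labelled TB IL-2nil replicate 3 and at 0.290 FPKM in the library labelled TB+ IL-2 replicate 3. The other 5 unstimulated libraries lay between 0 and 1.18 FPKM and the other 5 stimulated ones between 1095 and 2374. The study's own normalized expression values hold each of the 2 under the other's name. In what follows they are placed in each other's group, as the choice of this gene set prescribes, and counts without both are given beside each comparison. With the labels kept, no member passed the test in limma in any comparison.

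The cells had the defining transcripts of CD4 T cells. Cd3d, Cd3e, Cd3g and Cd4 summed to between 906 and 1798 normalized TPM, with the highest sums in TB IL-2nil. B cell markers summed to between 2.36 and 29.6, led by Cd79a, and were highest in TB IL-2nil at 23.2, 29.6 and 23.5. CD8 T cell markers summed to between 6.91 and 31.9, led by Cd8b1, with replicate 1 highest in TB IL-2, TB IL-2nil, TB+ IL-2 and TB+ IL-2nil alike. Myeloid markers summed to at most 4.88, led by Cd68, and NK cell markers to at most 0.303, with Ncr1 at 0 in all 12 libraries. Regulatory T cell markers summed to between 178 and 381, led by Tnfrsf18, while their defining factor Foxp3 reached 1.68 at most. The part of these markers in the results below was not tested.

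Ribosomes are made in the nucleolus. RNA polymerase I copies the ribosomal DNA into a long precursor, small nucleolar ribonucleoproteins (snoRNPs) guide its methylation and pseudouridylation, and separate sets of factors then cut and fold the precursors of the small (40S) and large (60S) subunits. In T cells this machinery is known to expand when a resting cell is activated and begins to grow and divide, and the transcription factor MYC is known to bind many of its genes.

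MYC with its partner MAX is known to bind the E-box CACGTG, which reads the same on both strands. RefSeq promoter windows (mouse GRCm38.p6, 250 bases before to 50 bases after the start of a gene) were given for 45 of the 50 members. Rrs1, Fbl, Npm1, Bop1 and Rrp12 had no entry. The E-box was present in 9 of 45 members (20%), against 17.7% of 96 other genes of the pathway and 9.38% of 64 cytosolic ribosomal proteins. It was in 11.9% of the 9530 genes tested that had a window and 8.09% of all 27025 genes with one. In 7 of the 9 it lay after the annotated start, the first of its bases being 2 to 40 bases downstream. Each motif is shown within 30 bases printed 5′ to 3′ along the gene, with the E-box in capitals. Whether members with an E-box changed otherwise than those without was not tested.

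Pes1 (chr11:3963965-3963994, plus strand): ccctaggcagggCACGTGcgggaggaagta
Wdr43 (chr17:71616220-71616249, plus strand): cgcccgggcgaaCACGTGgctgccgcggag
Tsr1 (chr11:74898092-74898121, plus strand): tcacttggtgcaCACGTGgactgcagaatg
Ltv1 (chr10:13193092-13193121, minus strand): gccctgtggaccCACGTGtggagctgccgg
Utp20 (chr10:88826765-88826794, minus strand): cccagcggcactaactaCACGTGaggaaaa
Pno1 (chr11:17211540-17211569, minus strand): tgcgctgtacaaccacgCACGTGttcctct
Mybbp1a (chr11:72441347-72441376, plus strand): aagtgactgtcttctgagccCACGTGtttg

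In Nop2 and Imp4 the motif lay upstream, with its first base 60 and 121 bases before the start.

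Nop2 (chr6:125131811-125131840, plus strand): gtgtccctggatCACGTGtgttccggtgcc
Imp4 (chr1:34439696-34439725, plus strand): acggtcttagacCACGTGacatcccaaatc

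A second motif, CCGGAAGT, the core bound by ETS factors, was present on either strand in 12 of 45 members (26.7%), against 25% of the 96 other genes of the pathway, 18.8% of 64 cytosolic ribosomal proteins, 9.48% of the genes tested and 4.31% of all genes with a window. The members were Brix1, Ebna1bp2, Emg1, Gar1, Heatr1, Ltv1, Nhp2, Nip7, Polr1c, Polr1e, Ppan and Tsr1, so that Ltv1 and Tsr1 held both motifs. A palindrome of 10 bases centred on CGCG was in 0 of 45 members, against 1.12% of the genes tested. It was in 4.17% of the other genes of the pathway and 9.38% of the cytosolic ribosomal proteins. The motif of NRF1 was in 6 of 45 (13.3%), against 11.8% of the genes tested, 16.7% of the other genes of the pathway and 9.38% of the cytosolic ribosomal proteins. None of the 4 motifs contains another. These matches describe the letters in the windows and say nothing of binding in these cells.

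Levels are given below as normalized TPM, which are corrected for gene length and so can be compared between genes, and are listed in the order of replicates 1, 2 and 3. Differences are log2 differences of normalized TPM + 1, with their standard error (SE) and a Benjamini-Hochberg adjusted P over all 12442 genes from limma, a linear model fitted gene by gene to all 12 libraries. On this scale the change of a weakly expressed gene comes out too small. The values are shares of the rRNA-depleted RNA sequenced, so fewer transcripts per cell and fewer cells of a type that makes them cannot be told apart, and a change in the RNA content of a whole cell would not be seen.

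Across the 4 groups the members followed a shared order. In 41 of 50 the mean level ran from TB+ IL-2nil at the top through TB+ IL-2 and TB IL-2 to TB IL-2nil at the bottom, an order found in 8.41% of all genes tested. TB IL-2nil was lowest in 46 members and TB+ IL-2nil highest in 43, against 20.4% and 23.2% of all genes. The place of TB+ IL-2nil above TB+ IL-2 rests on the scaling, since with no scaling between libraries the difference was in favour of TB+ IL-2 in 28 of 50 members. The median over the members was at 30.7, 57.8 and 38.9 normalized TPM in TB IL-2, 18.4, 18.0 and 17.3 in TB IL-2nil, 88.2, 91.5 and 76.8 in TB+ IL-2, and 124, 129 and 79.8 in TB+ IL-2nil. TB IL-2nil libraries were close to each other and below every other library, and the stimulated groups overlapped. Summed over the 50 genes, the members took 3880 ± 941 TPM (SD, n = 3) in TB IL-2, 1993 ± 175 in TB IL-2nil, 7527 ± 1161 in TB+ IL-2 and 9008 ± 2061 in TB+ IL-2nil.

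**Figure D1:**
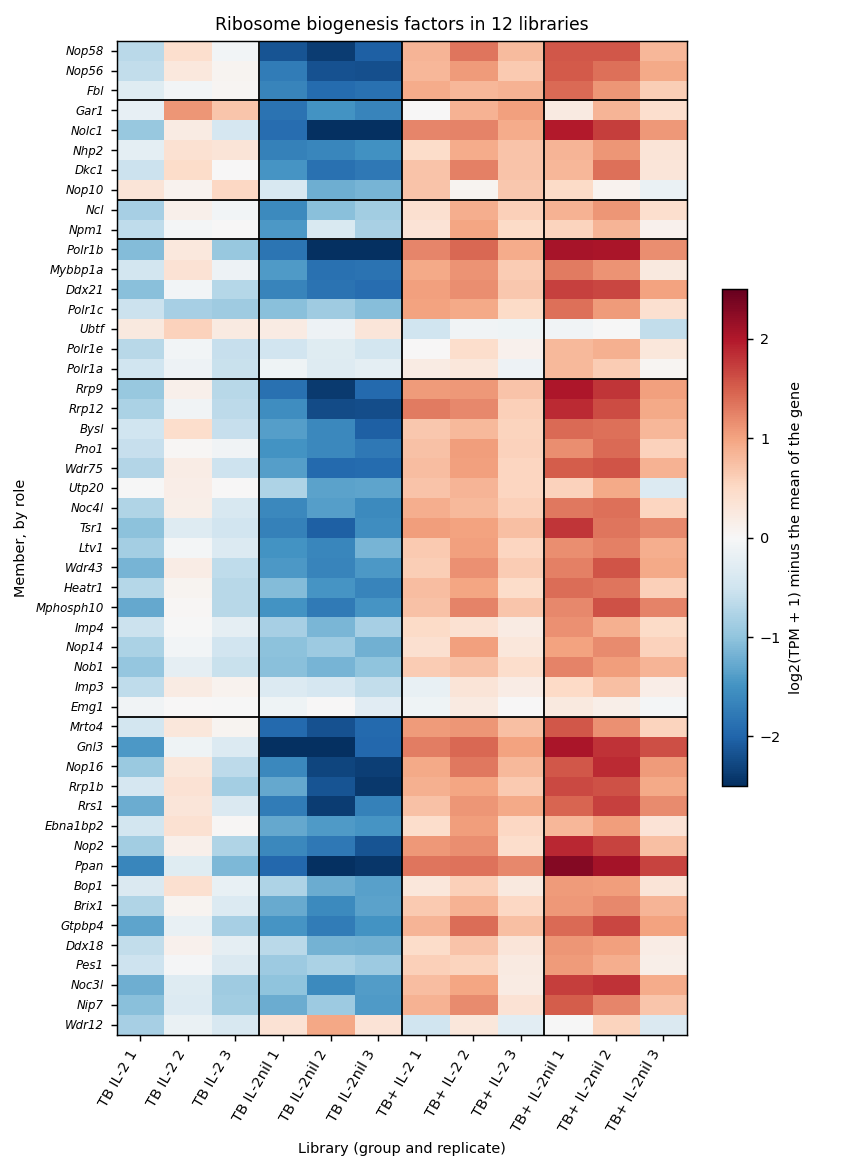
Level of each of the 50 members (rows, ordered by role as C/D snoRNP, H/ACA snoRNP, nucleolar, RNA polymerase I, small subunit and large subunit factors) in each of the 12 libraries (columns), as log2(normalized TPM + 1) minus the mean of the gene, with red above and blue below that mean and black lines between roles and between groups. The 3 TB IL-2nil libraries are the bluest for nearly all genes, while in Wdr12, Ubtf, Polr1a and Polr1e another group has the lowest mean and in Emg1 the groups differ little.

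Libraries of a group differed in level across the whole set. In TB IL-2, replicate 1 was the lowest of the group in 44 of 50 members and replicate 2 the highest in 46. Replicate 3 was the lowest of TB+ IL-2nil in 48 members and of TB+ IL-2 in 36, where replicate 2 was the highest in 41. Over all genes tested, a library was the lowest of its group for between 29.7% and 38.2% of genes. The replicate numbers are shared by all groups, and libraries of the same number deviated together from their group means (correlation of 0.10 to 0.53). The members did not always follow this. Replicate 1, the lowest of TB IL-2, was the highest of TB IL-2nil in 27 members and of TB+ IL-2nil in 27.

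The first comparison asked what IL-2 maintained in unstimulated blasts, which the paper describes as actively dividing in IL-2. Most members were lower after 16 h without IL-2. Of the 50, 37 were higher in TB IL-2 than in TB IL-2nil and 1, Wdr12, was lower, against 17.3% of all genes tested that were higher and 22.3% that were lower. The median difference of the members was 1.19, and that of all genes tested was -0.13. The level in TB IL-2nil was a median of 0.421 times that in TB IL-2, from 0.188 for Gar1 to 2.1 for Wdr12, and in 33 members it was at or below 0.5 times. At the 3-fold rule of the study with an adjusted P under 0.05, 13 members were higher and 0 lower, against 4.69% and 2.73% of all genes. In 40 members every TB IL-2 library was above every TB IL-2nil library, against 22.8% of all genes, and in 1 (Wdr12) every one was below, against 30.4%. Without the 2 relabelled libraries, 32 were higher and 1 lower.

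The next comparisons asked how the cells responded to PMA/I, with and without IL-2. They share TB IL-2 and TB IL-2nil libraries with the first, so the 3 are not independent. In IL-2, 37 members rose and none fell, against 11.8% and 23.3% of all genes, with a median difference of 1.02 against -0.22 for all genes. After withdrawal, 47 members rose and none fell, against 20.1% and 41.1% of all genes, with a median difference of 2.57 against -0.38. With the replicate number as a block, Ubtf fell in IL-2 (adjusted P = 0.0493) and Wdr12 after withdrawal (adjusted P = 0.0190). With no scaling between libraries, Ubtf and Wdr12 fell after withdrawal (adjusted P = 0.0137 and 0.00967). More than 3-fold rises with an adjusted P under 0.05 were found for 4 members in IL-2, against 3.94% of all genes, and for 40 after withdrawal, against 7.78%. All TB+ libraries lay above all TB libraries in 42 members in IL-2 (16.6% of all genes) and in 47 after withdrawal (21.8%), and below them in IL-2 in 1 member, Ubtf (35.1%). Without the 2 relabelled libraries, 33 members rose in IL-2 and 47 after withdrawal. The ratio of mean levels with and without PMA/I had a median of 2.04 in IL-2, from 0.668 for Ubtf to 4.77 for Ppan, and of 6.37 after withdrawal, from 0.713 for Wdr12 to 21.5 for Ppan.

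The stimulated cultures were compared with each other as well. Between TB+ IL-2 and TB+ IL-2nil no member passed the test in limma. Of all genes, 12.9% were higher with IL-2 and 8.4% lower (3.21% and 0.41% by more than 3-fold). Without the 2 relabelled libraries no member passed either. In 6 members every TB+ IL-2 library was below every TB+ IL-2nil library, against 18.3% of all genes, and in 0 every one was above, against 18.9%. The smallest adjusted P was 0.0795, for Noc3l. The 95% confidence intervals reached from -1.52 (Noc3l) to 0.95 (Nop10), with a median of 0.61 on either side of the estimate, and those of 32 members lay within 1 log2 unit of 0. The median difference was -0.37 against -0.04 for all genes, and 7 of 50 members had a positive difference, but with no scaling between libraries the median was 0.02 against 0.23 for all genes and 28 were positive. With the replicate number as a block, Noc3l (-0.83, adjusted P = 0.0404) and Polr1e (-0.48, adjusted P = 0.0415) were lower with IL-2. A result of the same kind followed without replicate 3 of TB+ IL-2nil, where Noc3l (adjusted P = 0.0312) and Imp4 (adjusted P = 0.0425) passed, and without replicate 2 of TB IL-2, where Ppan did (adjusted P = 0.0443).

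Whether the response to PMA/I differed between the cultures was tested as an interaction. This is the IL-2 difference between the stimulated groups minus that between the unstimulated groups, so it is not independent of those comparisons. Their median member differences were -0.37, where no member passed, and 1.19. A negative interaction means a larger rise after withdrawal. In 49 of 50 members it was negative, with a median of -1.48 against 0.16 for all genes, and 26 passed at an adjusted P under 0.05, against 2.66% of all genes that passed in this direction. None passed in the other, where 1.57% of all genes did. With the replicate number as a block, Wdr12 passed as positive (0.81, adjusted P = 0.0481). The median of the members lay between -1.70 and -1.01 over all alternatives except the labels as given. The count of negative calls depended on the processing and on the libraries used. It was 0 with no scaling between libraries, where 44 members were negative (median -1.01 against 0.51 for all genes). It was 0 as well with no filter on low values and without the 2 relabelled libraries, and 13 with a pseudocount of 0.1. It fell to 4 without TB IL-2 replicate 2 or 3, to 2 or 10 without TB IL-2nil replicate 2 or 3, to 7, 7 or 3 without TB+ IL-2 replicate 1, 2 or 3, and to 4 or 5 without TB+ IL-2nil replicate 1 or 2, and was 34 without TB+ IL-2nil replicate 3. With each of the 12 libraries left out in turn, the calls of Nop56 and Fbl were kept throughout, that of Nop58 was lost without 1 library (TB IL-2nil replicate 2), and those of the other 23 members were each lost without 4 (Mrto4) to 10 of them.

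**Figure D2:**
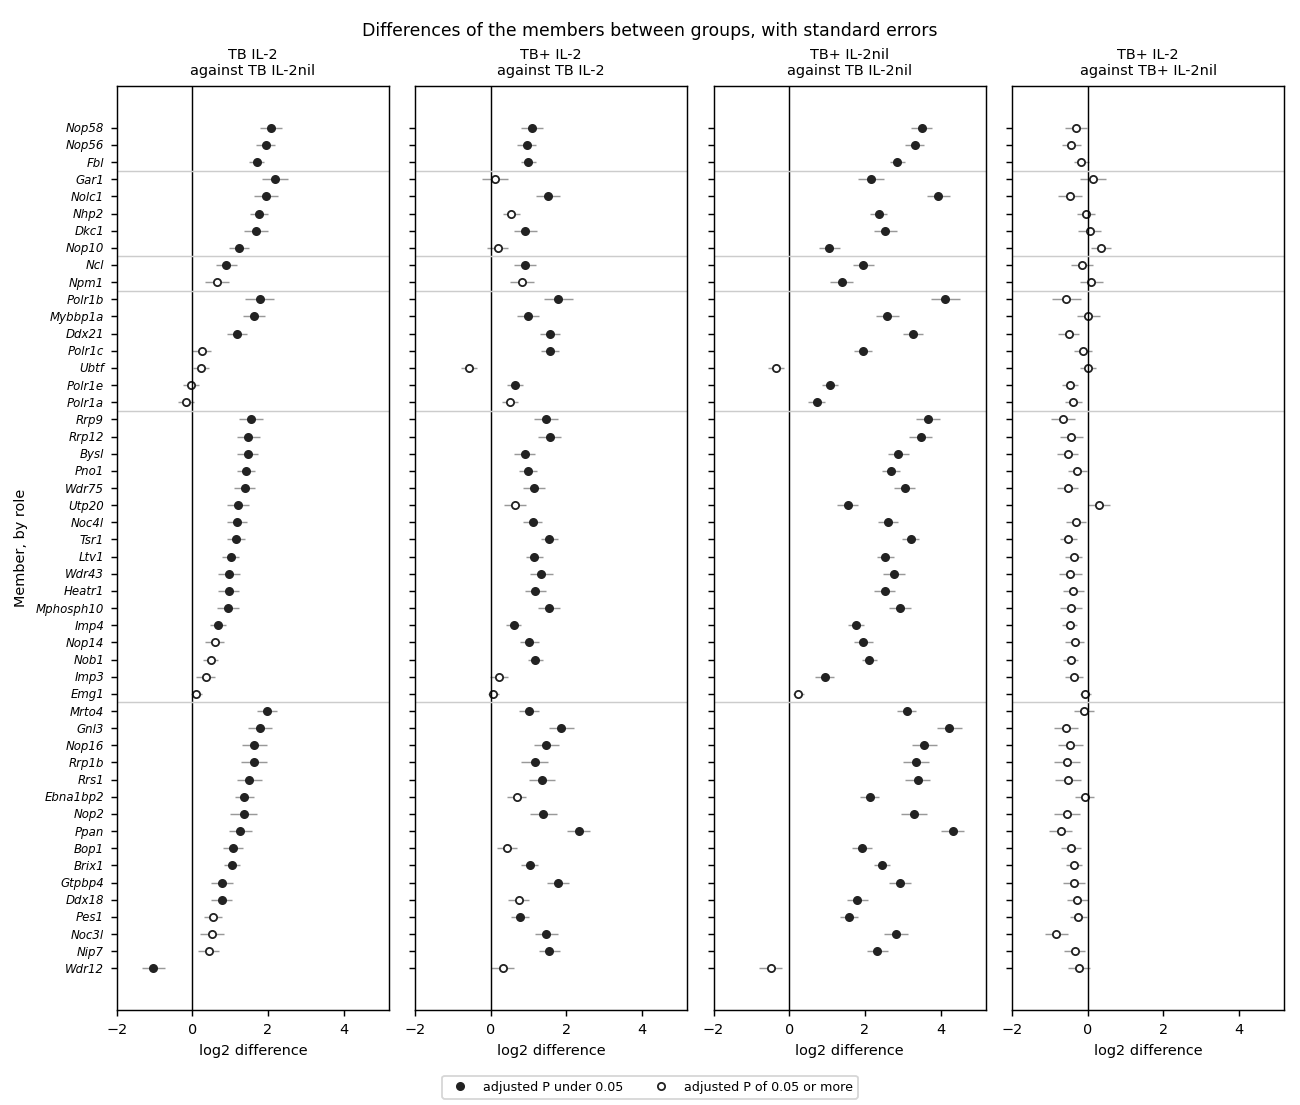
Log2 difference of each of the 50 members (rows, grouped by role) in the 4 comparisons, as points with standard errors from limma, where filled points have an adjusted P under 0.05 and open points do not. Filled points number 38, 37, 47 and 0 from left to right, and the panel of TB+ IL-2nil against TB IL-2nil reaches the largest differences.

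Box C/D snoRNP proteins carry out ribose methylation of ribosomal RNA. All 3 (Nop56, Nop58 and Fbl) were higher in TB IL-2 than in TB IL-2nil, rose with PMA/I in both cultures and passed for the interaction. Nop56, a scaffold protein of these particles (chromosome 2 from 130100166 to 130105049 on the plus strand, coordinates of mm9 here and below), was at 108, 201 and 174 normalized TPM in TB IL-2, 49.3, 36.1 and 35.6 in TB IL-2nil, 296, 350.4 and 263 in TB+ IL-2 and 482, 436 and 321 in TB+ IL-2nil. The TB IL-2nil libraries were the lowest and all TB+ libraries lay above all TB libraries. It was higher with IL-2 by 1.94 ± 0.25 (adjusted P = 0.000284) and rose by 3.32 ± 0.25 after withdrawal (adjusted P = 2.57e-06), and its interaction was -2.37 ± 0.36 (adjusted P = 0.0118). In IL-2 its rise of 0.94 (adjusted P = 0.0139) missed the threshold without TB IL-2 replicate 1 (0.0517) or TB+ IL-2 replicate 2 (0.0556), or with quantile normalization (0.0527).

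Fbl (fibrillarin, chromosome 7 from 28954765 to 28964288 on the plus strand) is the methyltransferase itself. Its levels were 158, 184 and 199.7 normalized TPM in TB IL-2, 61.2, 50.2 and 52.8 in TB IL-2nil, 372, 346 and 353 in TB+ IL-2 and 521, 419.7 and 296 in TB+ IL-2nil. The spread within TB IL-2 and TB+ IL-2 was small, and only the stimulated groups overlapped. The gene was higher with IL-2 by 1.7 ± 0.20 (adjusted P = 0.000169) and rose by 0.99 ± 0.20 in IL-2 and 2.86 ± 0.20 after withdrawal (adjusted P = 0.00324 and 1.57e-06). Nop58, the other scaffold, was at 91.2, 196 and 141 normalized TPM in TB IL-2, 32.3, 27.7 and 34.9 in TB IL-2nil, 266, 371 and 254 in TB+ IL-2 and 432, 431 and 263 in TB+ IL-2nil. Only the stimulated groups overlapped. Its difference with IL-2 was 2.08 and its rise after withdrawal 3.5 (adjusted P = 0.000417 and 4.32e-06), while its rise in IL-2 (adjusted P = 0.0129) missed the threshold without TB+ IL-2 replicate 2 (0.0551). The gene model of Nop56 shares at least 70 bases with each of 3 snoRNAs that it hosts, and rRNA-depleted total RNA holds snoRNAs, so their reads may add to its value.

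**Figure D3:**
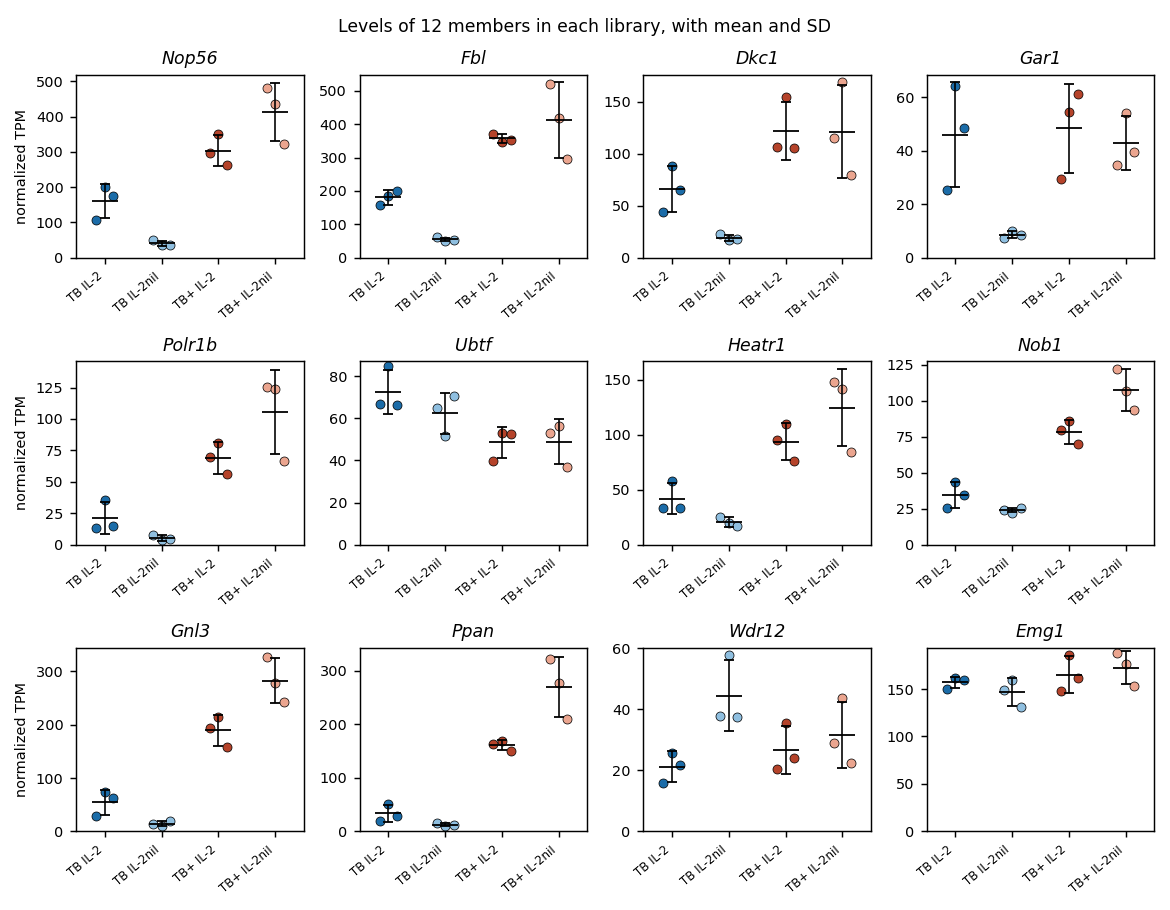
Normalized TPM of 12 members in each library (points, replicates 1 to 3 from left to right) by group, with the mean and SD of each group as bars and a linear axis from 0. Nop56, Fbl, Dkc1, Polr1b, Heatr1, Nob1, Gnl3 and Ppan have TB IL-2nil lowest and both stimulated groups above both unstimulated ones, by their group means. In Gar1 only TB IL-2nil stands apart, in Emg1 all groups overlap, and in Ubtf and Wdr12 the order of means differs.

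Box H/ACA snoRNP proteins turn uridine of ribosomal RNA into pseudouridine. All 5 members were higher with IL-2 and rose with PMA/I after withdrawal, but in IL-2 only Dkc1 and Nolc1 rose. Dkc1 (dyskerin), the pseudouridine synthase, was at 44.1, 88.2 and 65 normalized TPM in TB IL-2, 22.6, 16.8 and 18 in TB IL-2nil, 106, 154 and 106 in TB+ IL-2 and 115, 169 and 79.3 in TB+ IL-2nil. TB IL-2nil was below the other groups, TB IL-2 lay below TB+ IL-2, and TB+ IL-2nil spread across both. Dkc1 was higher with IL-2 by 1.68 ± 0.31 (adjusted P = 0.00181) and rose by 2.54 ± 0.31 after withdrawal (adjusted P = 4.25e-05). Its rise of 0.91 in IL-2 (adjusted P = 0.0386) was past the threshold with all libraries but not without TB IL-2 replicate 1 or 3 (0.144 and 0.0798), TB+ IL-2 replicate 1, 2 or 3 (0.0625, 0.138 and 0.0527) or the 2 relabelled libraries (0.0672). Nor was it with no filter on low values (0.0628), no scaling (0.0814), quantile normalization (0.0829) or only the groups compared in the fit (0.0547).

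Gar1 (chromosome 3 from 129527830 to 129534314 on the minus strand) had the largest difference of all members with IL-2. It was at 25.5, 64.3 and 48.4 normalized TPM in TB IL-2, 7.49, 9.84 and 8.67 in TB IL-2nil, 29.5, 54.5 and 61.1 in TB+ IL-2 and 34.7, 54.1 and 39.5 in TB+ IL-2nil. All 9 libraries outside TB IL-2nil were above it and overlapped one another. The difference with IL-2 was 2.19 ± 0.35 (adjusted P = 0.00082), the rise after withdrawal 2.16 ± 0.35 (adjusted P = 0.00028) and the difference with PMA/I in IL-2 0.10 ± 0.35 (adjusted P = 0.849), and the interaction was -2.06 ± 0.49 (adjusted P = 0.0422), a call lost without any 1 of 10 libraries (adjusted P of 0.0635 to 0.1004). Nhp2, another core protein, was at 78.7, 122 and 118 normalized TPM in TB IL-2, 28.4, 29.6 and 31.9 in TB IL-2nil, 128, 179 and 154 in TB+ IL-2 and 168, 200.5 and 116 in TB+ IL-2nil. Its 3 TB IL-2nil libraries were the lowest of all, TB IL-2 lay below TB+ IL-2, and TB+ IL-2nil overlapped both. With IL-2 it was higher by 1.77 (adjusted P = 0.000316), and 0.54 with PMA/I in IL-2 was not past the threshold (adjusted P = 0.0924).

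Nop10, the smallest core protein, was at 102, 86.9 and 118 normalized TPM in TB IL-2, 62, 34.3 and 36.1 in TB IL-2nil, 135, 85.2 and 132 in TB+ IL-2 and 115, 86.9 and 72.7 in TB+ IL-2nil. TB IL-2nil was again lowest, and the other groups overlapped. Its rise after withdrawal was 1.06 ± 0.27 (adjusted P = 0.00565), but with no scaling between libraries the value was 0.51 (adjusted P = 0.260). Nolc1, a nucleolar phosphoprotein that binds both kinds of snoRNP, had the most negative interaction of the 50 (-2.43 ± 0.44, adjusted P = 0.0209, lost without any 1 of 5 libraries at 0.0525 to 0.0613), with mean levels of 56.1 ± 22.5 (SD, n = 3), 13.3 ± 3.97, 154 ± 18.4 and 221 ± 65.7 normalized TPM in TB IL-2, TB IL-2nil, TB+ IL-2 and TB+ IL-2nil.

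Ncl (nucleolin) and Npm1 (nucleophosmin) are abundant multifunctional proteins of the nucleolus, and were the most highly expressed members. Ncl was at 136, 264 and 229.9 normalized TPM in TB IL-2, 80.2, 117 and 133 in TB IL-2nil, 322, 455 and 366 in TB+ IL-2 and 446, 519 and 324 in TB+ IL-2nil. TB IL-2nil lay below the rest, and TB IL-2 below both stimulated groups. It rose by 1.96 ± 0.29 after withdrawal (adjusted P = 0.000156). The difference with IL-2 (0.90, adjusted P = 0.0277) missed the threshold without TB IL-2 replicate 2 or 3 (0.109 and 0.0901) or TB IL-2nil replicate 1 or 2 (0.1004 and 0.0502), and the rise in IL-2 (0.90, adjusted P = 0.0316) without TB IL-2 replicate 1 (0.119), TB+ IL-2 replicate 2 or 3 (0.110 and 0.0600) or both relabelled libraries (0.0649). With no filter on low values or only the groups compared in the fit neither passed (0.106 and 0.0697 with IL-2, 0.0528 and 0.0526 for the rise), nor did the rise with quantile normalization (0.102).

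Npm1 was at 779, 1173 and 1228 normalized TPM in TB IL-2, 447, 929 and 696 in TB IL-2nil, 1539, 2409 and 1685 in TB+ IL-2 and 1798, 2201 and 1307 in TB+ IL-2nil. TB IL-2 and TB IL-2nil overlapped through TB IL-2nil replicate 2, and all stimulated libraries were above them. Its rise after withdrawal was 1.39 ± 0.31 (adjusted P = 0.00235), while 0.65 with IL-2 and 0.83 with PMA/I in IL-2 were not past the threshold (adjusted P = 0.112 and 0.0565). Npm1 has processed pseudogenes in the mouse genome that could share its reads, so its level is uncertain.

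RNA polymerase I and its factors did not all move alike. Of 7, 3 (Polr1b, Mybbp1a and Ddx21) were higher with IL-2, 5 rose with PMA/I in IL-2 and 6 rose after withdrawal. Polr1b, the second largest subunit of the enzyme (chromosome 2 from 128926731 to 128952330 on the plus strand), was at 13.3, 35.6 and 14.7 normalized TPM in TB IL-2, 7.59, 3.7 and 4.05 in TB IL-2nil, 69.4, 81.1 and 56.3 in TB+ IL-2 and 126, 124 and 66.9 in TB+ IL-2nil. TB IL-2nil was below TB IL-2, which had 1 library, replicate 2, well above its other 2, and both were below all stimulated libraries. Polr1b was higher with IL-2 by 1.78 ± 0.38 (adjusted P = 0.00437), rose by 1.78 ± 0.38 in IL-2 (adjusted P = 0.00475) and by 4.12 ± 0.38 after withdrawal (adjusted P = 8.64e-06), and its interaction was -2.34 (adjusted P = 0.0389), a call lost without any 1 of 9 libraries (adjusted P of 0.0627 to 0.0965).

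Polr1a, the largest subunit, was at 27.2, 35.6 and 26.1 normalized TPM in TB IL-2, 36, 31.1 and 32.6 in TB IL-2nil, 45.1, 47.6 and 35.3 in TB+ IL-2 and 69, 61.1 and 40.1 in TB+ IL-2nil. The unstimulated groups overlapped and so did the stimulated ones. It differed by -0.17 ± 0.22 with IL-2 (adjusted P = 0.555), a sign opposite to that of the median member, and rose by 0.72 ± 0.22 after withdrawal (adjusted P = 0.0131), a call lost without TB+ IL-2nil replicate 1 (0.0552) and with no scaling between libraries (0.18, adjusted P = 0.574). Polr1e, a subunit outside the catalytic core and the member with the lowest mean level, was at 6.39, 10.4 and 6.94 normalized TPM in TB IL-2, 7.58, 8.71 and 7.64 in TB IL-2nil, 11, 15.1 and 11.9 in TB+ IL-2 and 19.8, 21.1 and 13.6 in TB+ IL-2nil. Both TB groups overlapped, and all stimulated libraries lay above them. Its difference with IL-2 was -0.03 ± 0.22 (adjusted P = 0.923) and its rise after withdrawal 1.07 ± 0.22 (adjusted P = 0.00128), a call lost with no scaling between libraries (0.56, adjusted P = 0.0613). The rise of 0.63 in IL-2 (adjusted P = 0.0411) was past the threshold only without TB IL-2 replicate 2 or any TB+ IL-2nil library when single libraries were left out, with adjusted P from 0.0505 to 0.146 without the other 8 in turn. It was lost as well without both relabelled libraries (0.0836), with no scaling (0.118) and with only the groups compared in the fit (0.0646).

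Polr1c, a subunit shared with RNA polymerase III, was at 42.2, 34.3 and 33.2 normalized TPM in TB IL-2, 29.6, 33.2 and 29 in TB IL-2nil, 125, 121 and 86.6 in TB+ IL-2 and 162, 131 and 82.4 in TB+ IL-2nil. Withdrawal left it within the range of TB IL-2 or just below, and PMA/I raised it by 1.56 in IL-2 and 1.94 after withdrawal (adjusted P = 0.000683 and 5e-05). Ubtf (UBF), which coats active ribosomal DNA (chromosome 11 from 102165874 to 102181056 on the minus strand), was at 66.9, 84.7 and 66.5 normalized TPM in TB IL-2, 65.1, 51.5 and 70.6 in TB IL-2nil, 40, 53 and 52.7 in TB+ IL-2 and 53.2, 56.6 and 36.7 in TB+ IL-2nil. Every TB+ IL-2 library was below every TB IL-2 library, alone among the members. The difference was -0.57 ± 0.21 (adjusted P = 0.0522), and it passed as lower with the replicate block (adjusted P = 0.0493), without TB+ IL-2nil replicate 3 (0.0302), with a pseudocount of 5 (0.0402), with quantile normalization (0.0246), with a variance trend in limma (0.0442), with a stricter filter (0.0392) and with only the groups compared in the fit (0.0470). With IL-2 against without it was 0.22, and with PMA/I after withdrawal -0.36 (adjusted P = 0.425 and 0.155). After withdrawal it passed as lower with no scaling between libraries (-0.91, adjusted P = 0.0137) and with quantile normalization (-0.54, adjusted P = 0.0384).

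Ddx21, a helicase that binds ribosomal RNA and snoRNAs, was at 77.9, 155 and 98.6 normalized TPM in TB IL-2, 51.5, 44.4 and 42.7 in TB IL-2nil, 334, 366 and 259 in TB+ IL-2 and 533, 521 and 329.7 in TB+ IL-2nil. No unstimulated library reached any stimulated one, and TB IL-2nil was the lower of the 2 unstimulated groups. With IL-2 it was higher by 1.19 ± 0.27 (adjusted P = 0.00548), rose by 1.57 ± 0.27 and 3.26 ± 0.27 (adjusted P = 0.00128 and 4.16e-06), and had an interaction of -1.69 (adjusted P = 0.0355), a call lost without any 1 of 10 libraries (adjusted P of 0.0568 to 0.0848). Mybbp1a, a nucleolar protein that binds MYB, was higher with IL-2 by 1.63 and rose by 0.98 and 2.59 (adjusted P = 0.00181, 0.0254 and 3.09e-05), and its E-box is among those shown above.

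Small subunit factors build and cut the 40S precursor. Of 17, 13 were higher with IL-2, with a median difference of 1.02, 14 rose with PMA/I in IL-2 (median 1.14) and 16 after withdrawal (median 2.61), and 9 passed for the interaction. Heatr1, part of the early complex that meets the growing transcript, was at 33.4, 57.9 and 33.6 normalized TPM in TB IL-2, 25.4, 19.2 and 16.9 in TB IL-2nil, 94.6, 109.8 and 76 in TB+ IL-2 and 147, 142 and 84 in TB+ IL-2nil. All TB+ libraries were above all TB libraries, and the TB groups did not overlap. It rose by 1.18 ± 0.28 in IL-2 and 2.52 ± 0.28 after withdrawal (adjusted P = 0.008 and 2.62e-05). Its difference with IL-2 (0.96, adjusted P = 0.0194) missed the threshold without TB IL-2 replicate 2 (0.0811), TB IL-2nil replicate 2 or 3 (0.0551 and 0.0656) or both relabelled libraries (0.0730), or with no filter on low values (0.0809).

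Rrp9, a protein of the U3 snoRNP that starts cutting of the precursor, was at 27.6, 59.2 and 33.3 normalized TPM in TB IL-2, 14.1, 9.55 and 13.4 in TB IL-2nil, 115, 116 and 89.2 in TB+ IL-2 and 223, 190.1 and 111 in TB+ IL-2nil. The 4 groups did not overlap except for the stimulated pair, which met through TB+ IL-2nil replicate 3. Its rise was 3.68 ± 0.31 after withdrawal (adjusted P = 5.12e-06) and 1.45 ± 0.31 in IL-2 (adjusted P = 0.00474), with an interaction of -2.22 (adjusted P = 0.0265), a call lost without any 1 of 8 libraries (adjusted P of 0.0523 to 0.0695). Imp3, Imp4 and Mphosph10 form a complex on this particle. Mphosph10 and Imp4 were higher with IL-2 by 0.94 and 0.68 (adjusted P = 0.024 and 0.0212), while Imp3 differed by 0.35 (adjusted P = 0.272). After withdrawal, PMA/I raised all 3, by 2.92, 1.76 and 0.93 in that order.

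Utp20, a large scaffold of the processome, was at 19.2, 21.8 and 19.6 normalized TPM in TB IL-2, 10.9, 7.0 and 7.09 in TB IL-2nil, 32.5, 35.5 and 28.3 in TB+ IL-2 and 29.1, 38.4 and 15 in TB+ IL-2nil. TB IL-2nil was lowest, and TB+ IL-2nil ran from below all TB IL-2 libraries to above all others. Utp20 was higher with IL-2 by 1.21 ± 0.29 (adjusted P = 0.00734), and 0.64 with PMA/I in IL-2 was not past the threshold (adjusted P = 0.107). Bysl, which joins late nuclear steps, was at 15.1, 29.6 and 14.1 normalized TPM in TB IL-2, 7.72, 6.37 and 4.49 in TB IL-2nil, 35, 38.4 and 32.4 in TB+ IL-2 and 59, 57.9 and 39.2 in TB+ IL-2nil. Its groups did not overlap. It was higher with IL-2 by 1.46 and rose by 2.88 after withdrawal (adjusted P = 0.00241 and 1.13e-05). In IL-2 its rise of 0.89 (adjusted P = 0.0305) missed the threshold without TB IL-2 replicate 1 or 3 (0.105 and 0.113) or TB+ IL-2 replicate 1 or 2 (0.0728 and 0.0909), with no scaling (0.0631) or with only the groups compared in the fit (0.0577). The gene models of Bysl and Ccnd3 share 353 bases on opposite strands, and the sources used here do not say whether strand was used in quantification.

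Nob1, the nuclease that makes the last cut of the small subunit RNA, was at 25.5, 43.8 and 34.7 normalized TPM in TB IL-2, 24.3, 22.2 and 25.1 in TB IL-2nil, 79.6, 85.7 and 69.6 in TB+ IL-2 and 122, 106 and 93.2 in TB+ IL-2nil. The 4 groups did not overlap, although replicate 1 of TB IL-2 was close to TB IL-2nil. The difference with IL-2 was 0.49 ± 0.20 (adjusted P = 0.0692), and the rises were 1.18 ± 0.20 in IL-2 and 2.12 ± 0.20 after withdrawal (adjusted P = 0.00111 and 8.57e-06). Emg1, which methylates a pseudouridine of this RNA, was at 150.5, 161 and 159 normalized TPM in TB IL-2, 149, 159.8 and 131 in TB IL-2nil, 148, 186 and 162 in TB+ IL-2 and 188, 176 and 154 in TB+ IL-2nil. All 4 groups overlapped, and its 3 differences of 0.10, 0.07 and 0.23 did not pass (adjusted P = 0.61, 0.753 and 0.188).

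Of the other 8 small subunit factors (Nop14 with its partner Noc4l, Wdr43, Wdr75, Rrp12, Tsr1, Ltv1 and Pno1), 7 were higher with IL-2, and Nop14 differed by 0.60 (adjusted P = 0.0781). All 8 rose with PMA/I in both cultures. The largest rises after withdrawal were 3.48 for Rrp12, which takes part in export, and 3.21 for Tsr1, a GTPase-like factor of late steps (adjusted P = 5.97e-06 and 1.75e-06). Tsr1 was at 20.2, 33.8 and 30.3 normalized TPM in TB IL-2, 12.5, 9.5 and 13.7 in TB IL-2nil, 89.1, 86 and 71.9 in TB+ IL-2 and 149, 109 and 99.1 in TB+ IL-2nil. Its 4 groups did not overlap. The gene models of Tsr1 and Srr share 1240 bases on opposite strands, the most of any member.

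Large subunit factors act on the 60S precursor. Of 16, 12 were higher with IL-2 (median 1.17), 12 rose with PMA/I in IL-2 (median 1.26) and 15 after withdrawal (median 2.88), and 9 passed for the interaction. Gnl3 (nucleostemin), a GTP-binding protein of the nucleolus (chromosome 14 from 31825620 to 31832275 on the minus strand), was at 28.5, 73.7 and 62.2 normalized TPM in TB IL-2, 13.3, 10.4 and 19.7 in TB IL-2nil, 193, 215 and 159 in TB+ IL-2 and 327, 278 and 242 in TB+ IL-2nil. All 4 groups were separate from each other. It was higher with IL-2 by 1.79 ± 0.33 (adjusted P = 0.0019), rose by 1.86 ± 0.33 in IL-2 (adjusted P = 0.00154) and by 4.23 ± 0.33 after withdrawal (adjusted P = 2.98e-06), and had an interaction of -2.37 (adjusted P = 0.0265), a call lost without any 1 of 8 libraries (adjusted P of 0.052 to 0.0692).

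Ppan (chromosome 9 from 20692619 to 20696622 on the plus strand), a nucleolar protein of the large subunit precursor, had the largest rise of all members in both cultures. It was at 20.1, 52.1 and 29 normalized TPM in TB IL-2, 15.8, 10.7 and 11.1 in TB IL-2nil, 164, 168 and 151 in TB+ IL-2 and 322, 277 and 210.0 in TB+ IL-2nil. The 4 groups did not overlap. It rose by 2.33 ± 0.30 in IL-2 (adjusted P = 0.000231) and by 4.32 ± 0.30 after withdrawal (adjusted P = 1.57e-06). Its gene model shares 85.0 bases with 1 snoRNA on the same strand, whose reads may add to it.

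Mrto4, which holds the place of a stalk protein on the precursor, was at 40.8, 69.8 and 59.4 normalized TPM in TB IL-2, 14, 11.8 and 14.1 in TB IL-2nil, 119, 123 and 96.7 in TB+ IL-2 and 168, 127 and 83.7 in TB+ IL-2nil. TB IL-2nil was lowest and TB IL-2 next, with both stimulated groups above and overlapping. Mrto4 was higher with IL-2 by 1.98 ± 0.26 (adjusted P = 0.00031) and rose by 1.01 and 3.1 (adjusted P = 0.0118 and 4.67e-06), with an interaction of -2.09 (adjusted P = 0.0198), a call lost without any 1 of 4 libraries (adjusted P of 0.0502 to 0.0571). Noc3l, of a complex that moves with the precursor out of the nucleolus, was at 9.69, 18.9 and 12.5 normalized TPM in TB IL-2, 11.4, 7.24 and 8.53 in TB IL-2nil, 41.6, 48.7 and 27.8 in TB+ IL-2 and 82.3, 86.4 and 46.5 in TB+ IL-2nil. TB IL-2 and TB IL-2nil overlapped through replicate 1 of each, and all stimulated libraries were higher. It differed by 0.52 with IL-2 (adjusted P = 0.203) and rose by 1.47 ± 0.31 and 2.83 ± 0.31 (adjusted P = 0.0042 and 2.34e-05).

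Bop1, Pes1 and Wdr12 encode the 3 proteins of the PeBoW complex, needed for cutting of the large subunit precursor, and their levels did not move as one. Bop1 was at 37.8, 65 and 42.9 normalized TPM in TB IL-2, 28.3, 20.2 and 18.6 in TB IL-2nil, 59.9, 75.1 and 58.2 in TB+ IL-2 and 104, 102 and 61.3 in TB+ IL-2nil. It was higher in every TB IL-2 library than in any TB IL-2nil library, and TB IL-2 overlapped TB+ IL-2 through its replicate 2. Its difference with IL-2 was 1.07 ± 0.27 (adjusted P = 0.00894), with PMA/I 0.43 in IL-2 (adjusted P = 0.234) and 1.93 after withdrawal (adjusted P = 0.000102). Pes1, whose E-box lies at its start, differed by 0.55 with IL-2 (adjusted P = 0.0814) and rose by 0.77 and 1.57 (adjusted P = 0.0257 and 0.000177).

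Wdr12 (chromosome 1 from 60133712 to 60155489 on the minus strand) went the other way. It was at 15.9, 25.9 and 21.9 normalized TPM in TB IL-2, 38, 58 and 37.5 in TB IL-2nil, 20.5, 35.6 and 24.2 in TB+ IL-2 and 28.9, 43.6 and 22.6 in TB+ IL-2nil. Each TB IL-2nil library was above each TB IL-2 library, and it was the only member whose highest group was TB IL-2nil. The difference with IL-2 was -1.03 ± 0.29 (adjusted P = 0.017), and it missed the threshold without TB IL-2 replicate 1 (0.0580) or TB IL-2nil replicate 2 (0.0666), or with no filter on low values (0.0992). With PMA/I it differed by 0.31 in IL-2 and -0.50 after withdrawal (adjusted P = 0.441 and 0.163), and with the replicate block the second of these passed as lower (adjusted P = 0.0190) and the interaction as positive (0.81, adjusted P = 0.0481). With no scaling between libraries the difference after withdrawal was -1.03 (adjusted P = 0.00967). Its gene model shares 61.0 bases with Carf on the opposite strand.

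Of the other 9 large subunit factors, Nop16, Rrp1b, Rrs1, the RNA methyltransferase Nop2, Ebna1bp2, Brix1, the GTPase Gtpbp4 and the helicase Ddx18 were higher with IL-2, by 0.78 (Ddx18) to 1.64 (Nop16), and Nip7 differed by 0.44 (adjusted P = 0.23). In IL-2, Ddx18 and Ebna1bp2 did not pass with PMA/I (adjusted P = 0.058 and 0.0556) and the other 7 rose, by 1.02 (Brix1) to 1.77 (Gtpbp4). After withdrawal all 9 rose, by 1.79 (Ddx18) to 3.57 (Nop16).

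The members were then set beside genes of the same pathway and of its product. The members and the lists beside them were chosen with earlier results of these data known. The part of that choice in any contrast between them was not tested. Of 120 other ribosome biogenesis genes listed from knowledge of the pathway, 48 were higher with IL-2 and 4 lower, 56 rose with PMA/I in IL-2 and 3 fell, and 88 rose after withdrawal and 4 fell. Their median differences were 0.46, 0.58 and 1.33, each smaller than that of the members. Between TB+ IL-2 and TB+ IL-2nil, 6 were higher and 6 lower, and 13 passed for the interaction, all negative. None of these 13 passed without the 2 relabelled libraries, with no scaling between libraries or with no filter on low values, and without TB IL-2nil replicate 2 only Dis3 did. By kind, the 3 differences had medians of 0.45, 0.55 and 1.39 in 38 other small subunit factors, 0.38, 0.78 and 1.64 in 43 other large subunit factors, 0.06, 0.68 and 1.05 in 11 other RNA polymerase I factors, and 0.90, 0.22 and 0.73 in 28 proteins of snoRNP assembly, the exosome and RNase MRP.

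Rcl1, a factor of small subunit processing, had the largest rise of these genes after withdrawal. It was at 24.4, 34 and 20.6 normalized TPM in TB IL-2, 19.2, 9.59 and 8.34 in TB IL-2nil, 114, 121 and 76.2 in TB+ IL-2 and 247, 184 and 99.996 in TB+ IL-2nil. The stimulated libraries were all above the unstimulated ones. It rose by 3.73 ± 0.37 after withdrawal and 1.94 ± 0.37 in IL-2 (adjusted P = 1.29e-05 and 0.00247). Rpp30, a protein subunit of RNase P and RNase MRP, was at 25, 27 and 27.7 normalized TPM in TB IL-2, 5.75, 4.55 and 9.41 in TB IL-2nil, 19.3, 24.6 and 25.2 in TB+ IL-2 and 4.13, 5.87 and 5.58 in TB+ IL-2nil. It was higher with IL-2 in unstimulated and in stimulated cells alike, by 1.92 ± 0.23 and 1.96 ± 0.23 (adjusted P = 0.000173 and 0.000344). No member passed in the second of these comparisons.

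Others that stood out were Dis3, an exosome nuclease, and the large subunit factor Rpf2 with IL-2 (1.82 and 1.65, adjusted P = 0.000208 and 0.00889). With PMA/I they were Taf1a, of the selectivity factor of RNA polymerase I, and the GTPase Gnl2 in IL-2 (2.0 and 1.74, adjusted P = 2.49e-05 and 0.000257), and the H/ACA assembly factor Naf1 and Rrp15 after withdrawal (3.68 and 3.07, adjusted P = 5.3e-06 and 1.1e-05). In stimulated cells the exosome subunit Exosc8 was higher with IL-2 (1.51, adjusted P = 0.000922) and Gltscr2, also known as Nop53, was lower (-1.08, adjusted P = 0.00203). For the interaction, Naf1, Dis3 and Rrp15 had the largest values (-2.23, -2.08 and -1.88, adjusted P = 0.0265, 0.012 and 0.0362). The call of Dis3 was kept without each library in turn, while those of Naf1 and Rrp15 were lost without any 1 of 6 and 10 libraries.

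Cytosolic ribosomal proteins, the partners of ribosomal RNA in the finished particle, were the next list. Of 83 proteins of the cytosolic ribosome, 4 were higher and 7 lower with IL-2, 2 rose with PMA/I in IL-2 and 11 after withdrawal, with none that fell, and 2 were higher and 2 lower between the stimulated groups. Their medians in these 4 comparisons were -0.17, 0.28, 0.27 and -0.20, and many have near-identical pseudogenes that can share reads. Of 78 mitochondrial ribosomal proteins, 40 were higher and 2 lower with IL-2, a median of 0.54. With PMA/I, 2 rose and 9 fell in IL-2, and 17 rose and 18 fell after withdrawal, with medians of -0.20 and -0.18, and between the stimulated groups 24 were higher with IL-2 and 1 lower.

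**Figure D4:**
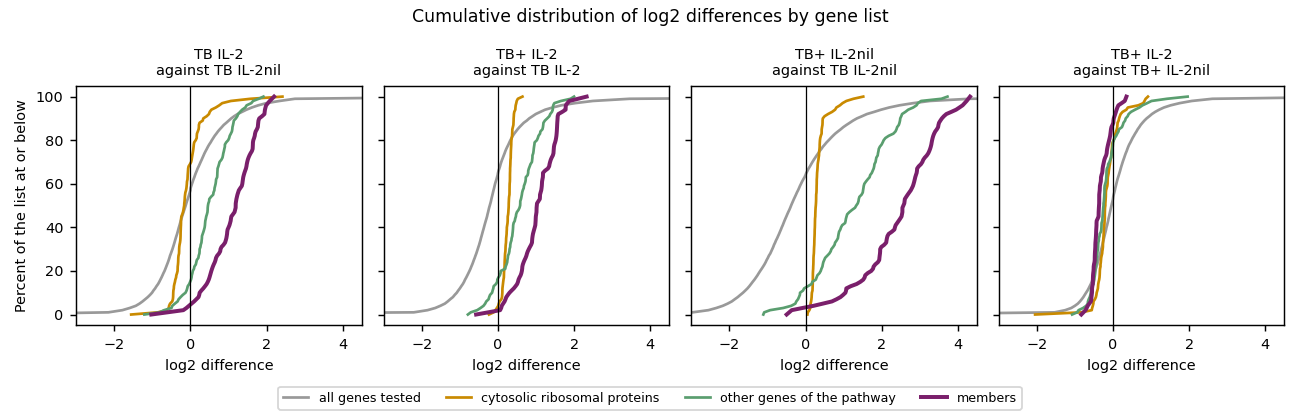
Percent of genes (vertical axis) at or below a log2 difference (horizontal axis) in the 4 comparisons, for the 50 members (purple), 120 other genes of the pathway (green), 83 cytosolic ribosomal proteins (orange) and all 12442 genes tested (grey). By its median, the purple line lies furthest to the right in the first 3 panels, at 1.19, 1.02 and 2.57, and its median is -0.37 in the fourth.

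Myc, a known regulator of ribosome biogenesis genes, is given beside them. It was at 40.2, 170.3 and 180.3 normalized TPM in TB IL-2, 14.8, 14.4 and 29.2 in TB IL-2nil, 757, 697 and 574 in TB+ IL-2 and 1665, 1465 and 1680.0 in TB+ IL-2nil. The 4 groups did not overlap, and TB+ IL-2nil was the highest by far. Myc was higher with IL-2 by 2.48 ± 0.48 (adjusted P = 0.0025), rose by 2.63 ± 0.48 and 6.36 ± 0.48 (adjusted P = 0.00188 and 2.53e-06), and had an interaction of -3.73 ± 0.68 (adjusted P = 0.0209), a call lost without any 1 of 6 libraries (adjusted P of 0.0502 to 0.0613) and without both relabelled ones, with no scaling and with no filter on low values. Within TB IL-2, replicate 1 had the lowest Myc level and the lowest member median. In TB+ IL-2nil, replicate 3 had the highest Myc level of its group and the lowest member median. Whether the members follow Myc was not tested.

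**Figure D5:**
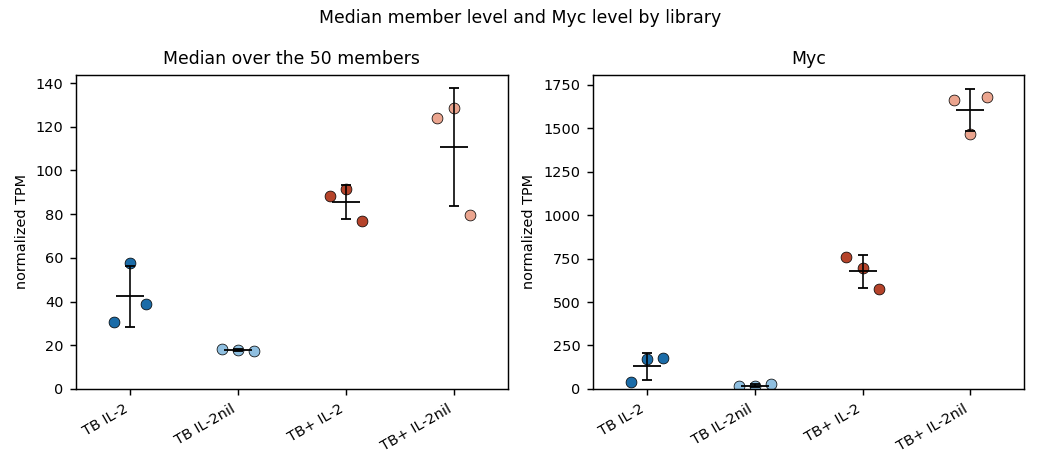
Median normalized TPM over the 50 members (left) and normalized TPM of Myc (right) in each library (points, replicates 1 to 3 from left to right) by group, with the mean and SD of each group as bars on linear axes from 0. Both rise from TB IL-2nil (17.9 ± 0.555 and 19.5 ± 8.45) through TB IL-2 (42.4 ± 13.9 and 130.2 ± 78.1) and TB+ IL-2 (85.5 ± 7.69 and 676 ± 93.0) to TB+ IL-2nil (111 ± 27.0 and 1603 ± 120.3).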

How the data were processed

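RNA-Seq was done on 12 libraries, 3 each of TB IL-2, TB IL-2nil, TB+ IL-2 and TB+ IL-2nil. By the submitters' processing notes and the methods, the authors used Trimmomatic 0.32 for trimming, HISAT2 2.1.0 for alignment to mm9 and StringTie 1.3.3 for quantification of RefSeq genes, and deposited FPKM values for 24439 gene names. TPM is the unit named in the methods, but a library of the deposited values sums to between 193815 and 420487. Whether strand was used in quantification is not given in the sources used here.

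Here each library was rescaled to TPM (a sum of 1000000), genes that never exceeded 1 TPM were dropped, and libraries were brought to a common 75th percentile, the mean over the 12. The log2(TPM + 1) values were fitted with limma 3.58.1 (R 4.3.3), with all 12 libraries, 4 groups, no block and no trend (8 residual degrees of freedom), and Benjamini-Hochberg adjustment over 12442 genes, at an adjusted P under 0.05. The fit was run on simulated data with errors independent between libraries. Libraries of the same number deviated together in the real data, so that run cannot say how the calls behave under shared deviations. The 2 libraries labelled TB IL-2nil replicate 3 and TB+ IL-2 replicate 3 were exchanged, as in the study's normalized values. After quantile normalization each of its 12 columns met 1 deposited library within 0.1% in at least 97.1% of 1381 genes, and any other in at most 0.507%. Groups otherwise follow the labels. Libraries of the same number deviated together from their group means in all 18 pairs (correlation of 0.10 to 0.53).

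The members and lists were chosen with earlier results of these data known. Values in every library are given for 12 members set by role, the 3 with the largest and smallest difference in each comparison, those with the sign opposite to the median member with IL-2, the 3 with the highest and lowest mean, and the 5 with the smallest interaction P. Of the other pathway genes the 3 with the largest difference in each comparison among those that passed are named, with values in every library for Rcl1 and Rpp30 and differences for the rest. Polr1c and Tsr1 lie outside this rule, as do members named with a difference only, and were chosen after their values were seen. Depth is known only relatively, from the steps of low values, at 0.409 (TB IL-2nil replicate 2) to 1.25 (TB+ IL-2nil replicate 1) times the median library, so no counting intervals are given. Short non-coding RNAs took 16.6%, 43.8% and 22.0% of TPM in TB IL-2 and 21.3%, 37.5% and 35.4% in TB IL-2nil. They took 22.2%, 27.5% and 22.7% in TB+ IL-2 and 53.2%, 40.2% and 33.0% in TB+ IL-2nil, so the stimulated groups did not overlap. Gene positions are those of GENCODE M1 on mm9. Of 50 members, 16 share exon bases with another gene, 15 of them on the opposite strand. Python 3.11.15, pandas 2.3.3 and numpy 2.4.6 were used for the rest. Alternatives were the labels as given, leaving out both exchanged libraries or each library in turn, a replicate block, other pseudocounts, filters and scalings, no short RNAs, a variance trend, only the groups compared, and the 3-fold rule.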

Additional observations from a re-analysis of the deposited data

Results flagged for a closer look

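The response to PMA/I differed between cultures with and without IL-2 by a test of the difference itself, the interaction in limma with Benjamini-Hochberg adjustment over all genes, in 26 of 50 members. All were negative, that is, the rise on the log2 scale was larger after withdrawal of IL-2. The interaction reuses the libraries of the other comparisons. It is the IL-2 difference in stimulated cells, where no member passed, minus that in unstimulated cells, where most members were higher with IL-2. In order of size the first were Nolc1 (-2.43), Nop58 (-2.40), Nop56 (-2.37), Gnl3 (-2.37), Polr1b (-2.34), Rrp9 (-2.22), Rrp1b (-2.19), Nop16 (-2.11), Mrto4 (-2.09). They were followed by Gar1 (-2.06), Rrs1 (-2.03), Bysl (-1.99), Ppan (-1.99), Rrp12 (-1.92), Wdr75 (-1.92), Fbl (-1.87), Nhp2 (-1.82), Pno1 (-1.69). The smallest were Ddx21 (-1.69), Tsr1 (-1.67), Noc4l (-1.50), Bop1 (-1.50), Ebna1bp2 (-1.45), Brix1 (-1.42), Ltv1 (-1.39) and Imp4 (-1.16). The count was 0 without the 2 exchanged libraries, with the libraries as labelled, with no scaling between libraries and with no filter on low values, 13 with a pseudocount of 0.1, and between 2 and 34 when each library was left out in turn. No group had more than 3 libraries, so single libraries were not tested for standing apart.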

How the results depend on the processing

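With the libraries as labelled, no member passed in any comparison (0 higher and 0 lower, interaction 0), with medians of 0.45 (TB IL-2 against TB IL-2nil), 0.40 (TB+ IL-2 against TB IL-2), 1.85 (TB+ IL-2nil against TB IL-2nil) and -0.99 (TB+ IL-2 against TB+ IL-2nil), and Nop56 reversed between TB+ IL-2 and TB IL-2 (-0.0051). None of 71 calls of named genes then held, and all 71 kept their sign except that one. By the 3-fold rule, 13 members were higher and 0 lower with IL-2 and 4 rose in IL-2. With no filter on low values, 0 were lower with IL-2, the medians of the responses were 1.32 and 3.02, and the interaction count was 0. With no scaling, 2 (Ubtf and Wdr12) fell after withdrawal (median 2.02), the median between stimulated groups was 0.0228, and the interaction count was 0 (median -1.01). With median scaling the median after withdrawal was 2.96. The interaction count was 13 at a pseudocount of 0.1 and 0 without both exchanged libraries. A single member, Ubtf, was lower in TB+ IL-2 than in TB IL-2 (count of 1) with a pseudocount of 5, over 1 TPM in at least 3 libraries, quantile normalization, a trend or only the groups compared, and 1, Ubtf, fell after withdrawal with quantile normalization. The cause was not tested.

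With the replicate block, all 71 calls of named genes were kept. Members lower were 1 (Ubtf) in TB+ IL-2 against TB IL-2, 1 (Wdr12) in TB+ IL-2nil against TB IL-2nil and 2 between the stimulated groups, and 1 (Wdr12) had a positive interaction. Pairing rests on the replicate numbers of the labels, which do not say what libraries of a number share.

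Leaving out each library in turn gave 30 to 40 members higher and 0 to 1 lower with IL-2, 27 to 41 higher and 0 to 1 lower in TB+ IL-2 against TB IL-2, 46 to 47 higher after withdrawal, 0 to 2 lower between the stimulated groups and 2 to 34 for the interaction. The medians lay between 0.93 and 1.32, 0.83 and 1.23, 2.46 and 2.85, -0.56 and -0.24, and -1.70 and -1.26 in these 5 comparisons. All 71 calls of named genes were the same with short RNAs left out, a trend, median scaling, a pseudocount of 5 or the stricter filter. The median over all genes after withdrawal was -0.38, -0.78 with no scaling and -0.08 with median scaling. With 3 libraries a group and relative depths that differ 3.05-fold, members at few TPM are the least precise.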
